A study of Mus musculus with 12 samples.

Results

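The BCL2 family survival and death genes described here are 10 of the 52636 genes in the deposited count table. They were taken by name and role, with no cutoff on a measured value, as 4 genes that oppose apoptosis (Bcl2, Bcl2l1, Mcl1 and Bcl2a1b) and 6 that promote it (Bax, Bak1, Bcl2l11, Bid, Bbc3 and Pmaip1). All 10 passed the filter on low counts, along with 14173 genes in total. The samples were CD8+ tumor-infiltrating lymphocytes (TILs) of A2AR eGFP reporter mice on a C57BL/6 background, aged 6 to 16 weeks, bearing AT-3 ova mammary tumors started from 500000 cells and taken at day 21. The reporter is a bacterial artificial chromosome transgene, Tg(Adora2a-EGFP)EP141Gsat, in which Adora2a regulatory sequence drives GFP, so GFP stands for A2AR transcription and not for the receptor protein. Cells were sorted as GFP+ or GFP− from mice left untreated (NT) or given anti-PD-L1 on days 14 and 18, which made 4 conditions with 3 QuantSeq 3′ RNA-seq libraries each. Every library was a pool of 3 mice. The labels do not say whether the 3 pools of a condition were independent, so p-values measure the spread between these libraries.

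As background, proteins of the BCL2 family decide whether the outer mitochondrial membrane stays intact. Bax and Bak1 encode the effectors that permeabilize the membrane, the anti-apoptotic members hold the effectors and their activators in check, and the BH3-only members (here Bcl2l11, Bid, Bbc3 and Pmaip1) activate the effectors or neutralize the anti-apoptotic proteins. In T cells, BCL2 and MCL1 sustain survival under cytokines such as IL-7 and IL-15, BCL-xL and A1 are induced by antigen receptor signals, and BIM, the product of Bcl2l11, removes T cells when cytokine support is withdrawn or a response contracts. Much of the control of this family acts on the proteins, which were not measured here.

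Total counts per library were 11292699 to 19023900. The sort matched the reporter gene, since Adora2a was at 60.2 to 111 CPM in GFP+ and at 19.7 to 34.6 CPM in GFP− libraries. CPM are read counts scaled to a common library size, here by the TMM method, and gene positions below are on build GRCm38 (mm10). The 7 T cell marker genes summed to 3867 to 6016 CPM, Cd8a was at 799 to 1360 CPM and, of the CD4 T cell list, Cd4 at 0 to 0.919 CPM and Foxp3 at 6.44 to 24.9 CPM. Markers of neutrophils, B cells and tumor epithelium summed to at most 3.37, 7.13 and 32.8 CPM, and those of NK cells, some of which CD8+ T cells share, to 130 to 265 CPM. The GFP+ libraries KT13 (NT) and KT21 (anti-PD-L1) stood apart, with median Spearman correlations to the other libraries of 0.941 and 0.936 against 0.967 to 0.977 elsewhere. Results are therefore given for all 12 libraries and for the 10 libraries without these, which leaves 2 GFP+ libraries in each treatment. The study's own displays use fewer GFP+ than GFP− libraries, and which ones it left out is not given in the sources used here. In sorted bulk RNA, fewer cells of a type and less RNA per cell cannot be told apart.

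Among the 10 genes, the clearest differences were those of the pro-apoptotic Bcl2l11 with GFP and of the anti-apoptotic Bcl2 and Bcl2a1b with anti-PD-L1. Bcl2l11 was higher in every GFP+ library than in every GFP− library of the same treatment, 1.22-fold in NT cells and 1.63-fold after anti-PD-L1. Bcl2 was lower in every anti-PD-L1 library than in every NT library of the same GFP fraction, at 0.817 times the NT level in GFP+ and 0.824 times in GFP− cells. Bcl2a1b was 1.51-fold higher after anti-PD-L1 in GFP+ cells. Over 12 libraries none of the 10 genes reached an adjusted p under 0.05 in edgeR, and without KT13 and KT21 the higher Bcl2l11 in GFP+ cells and the higher Bcl2a1b after anti-PD-L1 did.

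**Figure D1:**
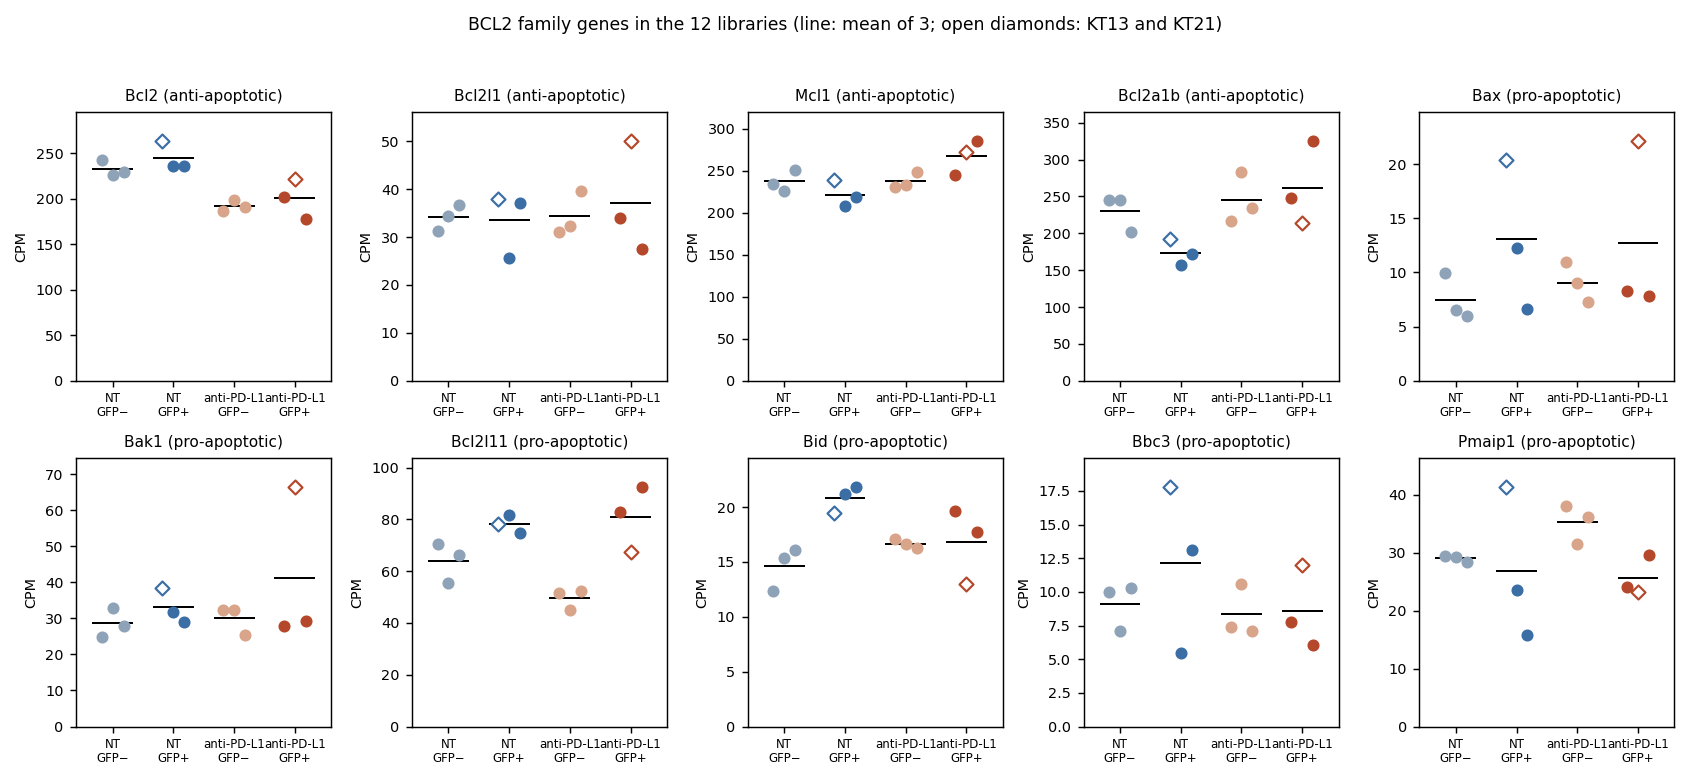
TMM-scaled CPM (y axis, from 0) of the 10 genes in each of the 12 libraries, by condition (x axis). Points are libraries, lines are means of 3 and open diamonds are KT13 and KT21. Bcl2l11 separates GFP+ from GFP− in both treatments (74.6 to 81.8 against 55.5 to 70.5 CPM in NT, 67.3 to 92.6 against 45.1 to 52.2 CPM after anti-PD-L1), while the Bax and Bak1 means of the GFP+ groups are pulled up by 1 library each.

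Bcl2 (ENSMUSG00000057329, chr1:106538178-106714274, − strand) encodes the founding anti-apoptotic member of the family, which sequesters BIM in resting and memory T cells. In NT cells Bcl2 was at 243, 226 and 230 CPM in the GFP− libraries (KT14, KT16, KT18) and at 264, 237 and 236 CPM in the GFP+ libraries (KT13, KT15, KT17). After anti-PD-L1 it was at 187, 198 and 191 CPM in GFP− (KT20, KT22, KT24) and at 202, 222 and 177 CPM in GFP+ libraries (KT19, KT21, KT23). The NT libraries thus lay above the anti-PD-L1 libraries in both GFP fractions, and GFP+ and GFP− libraries overlapped within each treatment. The exons of Bcl2 share 558 bases with D630008O14Rik on the opposite strand (0 counts in every library).

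The condition means of Bcl2 ran from 192 ± 5.83 CPM (SD, n = 3) in anti-PD-L1 GFP− through 200.5 ± 22.5 in anti-PD-L1 GFP+ and 233 ± 8.93 in NT GFP− to 245 ± 15.8 in NT GFP+. The means of the first pair and of the last pair of that order differed by less than the larger SD of the pair, but by more than the smaller. The log2 fold change with anti-PD-L1 was −0.29 (SE 0.136) in GFP+ and −0.28 (SE 0.136) in GFP− cells, and averaged over both fractions −0.29 (SE 0.0958, adjusted p = 0.387, from the quasi-likelihood test of edgeR after Benjamini-Hochberg adjustment). Without KT13 and KT21 the averaged value was −0.30 (SE 0.0792, adjusted p = 0.0668 by the same edgeR test), and DESeq2 on those 10 libraries called it (−0.31, SE 0.0712, adjusted p = 0.00214). Between GFP+ and GFP− cells Bcl2 differed by 0.07 (SE 0.0958) on the log2 scale averaged over treatments, and by 0.00 (SE 0.0792) without those libraries.

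Macrophage and monocyte markers moved with treatment as Bcl2 did. All 10 of these markers were detected, and their summed level was 153 to 225 CPM in NT GFP− and 206 to 283 in NT GFP+ libraries, against 77.1 to 134 in GFP− and 84.6 to 168 in GFP+ libraries after anti-PD-L1. Their part in the Bcl2 difference was not tested.

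The genes whose pattern over the 12 libraries lay closest to that of Bcl2, by the root mean square difference of centred log2(CPM + 0.5) and among genes whose SD over the libraries was at least 0.8 times that of Bcl2, were Tcf19 (0.086), Arhgap15 (0.096) and Pdlim1 (0.099). Tcf19 averaged 34.7 and 37.9 CPM in NT GFP− and GFP+ cells and 28.5 and 31.9 CPM in anti-PD-L1 GFP− and GFP+ cells.

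Mcl1 (ENSMUSG00000038612, chr3:95658788-95663176, + strand) encodes a short-lived anti-apoptotic protein on which activated and memory T cells depend. It was at 234.5, 226 and 251 CPM in NT GFP−, at 239, 207 and 218 in NT GFP+, at 231, 233 and 248 in anti-PD-L1 GFP− and at 245, 272 and 285 in anti-PD-L1 GFP+ libraries. Mcl1 was thus highest in anti-PD-L1 GFP+ cells (267 ± 20.4 CPM, n = 3), whose libraries all lay above those of NT GFP+ cells (221 ± 15.8), whereas both GFP− groups averaged 237 CPM. The log2 fold change with anti-PD-L1 was 0.27 (SE 0.132, edgeR with Benjamini-Hochberg adjusted p = 0.756) in GFP+ cells and −0.00 (SE 0.132) in GFP− cells. The difference between these, the interaction term, was 0.27 (SE 0.187, adjusted p = 1 by the edgeR test with Benjamini-Hochberg adjustment).

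Bcl2l1 (ENSMUSG00000007659, chr2:152780668-152831728, − strand) encodes BCL-xL. It was at 31.2 to 36.6 CPM in NT GFP−, 25.6 to 37.9 in NT GFP+, 31.0 to 39.6 in anti-PD-L1 GFP− and 27.5 to 50.0 in anti-PD-L1 GFP+ libraries, with the highest value in KT21. All 4 ranges overlapped. The fold changes of Bcl2l1 were within 0.15 of 0 on the log2 scale in each of the 4 comparisons between 2 conditions, with SE of 0.225 or 0.226.

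Bcl2a1b (ENSMUSG00000089929) is a mouse copy of the gene for A1, an NF-kappaB-inducible anti-apoptotic protein of short half-life. It was at 245, 245 and 202 CPM in NT GFP− and at 192, 157 and 172 CPM in NT GFP+ libraries. After anti-PD-L1 it was at 217, 283 and 235 CPM in GFP− and at 247, 214 and 325 CPM in GFP+ libraries. The NT GFP+ libraries were the lowest of the 12, below every library of the other 3 conditions.

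The condition means of Bcl2a1b ran from 174 ± 17.6 CPM (SD, n = 3) in NT GFP+ through 231 ± 24.9 in NT GFP− and 245 ± 34.1 in anti-PD-L1 GFP− to 262 ± 57.2 in anti-PD-L1 GFP+. The upper 3 means lay within 1 SD of their neighbours. In GFP+ cells Bcl2a1b was 1.51-fold higher after anti-PD-L1 (log2 0.59, SE 0.179, adjusted p = 0.427 by the edgeR test with Benjamini-Hochberg adjustment). It rose 1.74-fold without KT13 and KT21 (log2 0.80, SE 0.153, edgeR with Benjamini-Hochberg adjusted p = 0.00958). In GFP− cells the fold change with treatment was 1.06 (log2 0.09, SE 0.178). The interaction was 0.51 (SE 0.252) in 12 libraries and 0.71 (SE 0.197) in 10, with adjusted p = 1 in both by edgeR, so a different response in the 2 fractions was not shown.

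Marker sums of T cells ran in part as Bcl2a1b did, with 3867 to 4233 CPM in NT GFP+ libraries, below the 4540 to 4643 CPM of NT GFP−, the 5116 to 5362 CPM of anti-PD-L1 GFP− and the 4633 to 6016 CPM of anti-PD-L1 GFP+ libraries. The macrophage and monocyte sum was lower after anti-PD-L1, as given for Bcl2. Neutrophils also use A1, and their 6 markers summed to 0.305 to 3.37 CPM in NT GFP−, 0.399 to 1.42 in NT GFP+, 1.21 to 1.45 in anti-PD-L1 GFP− and 0.152 to 0.773 in anti-PD-L1 GFP+ libraries, with Mmp8 at 0 in all 12 libraries. The part of these cell types in the Bcl2a1b difference was not tested.

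Mice carry several near-identical copies of this gene on chromosome 9, and the first 60 coding bases of the 3 expressed copies are shown because they hold 6 of the 12 positions, out of 516, at which the copies differ. Capitals mark these 6 positions, the sequences are from the GENCODE vM21 transcripts (GRCm38), and each lies in coding sequence at the 5′ end of the reading frame.
Bcl2a1a: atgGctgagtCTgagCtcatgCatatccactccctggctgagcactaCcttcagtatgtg
Bcl2a1b: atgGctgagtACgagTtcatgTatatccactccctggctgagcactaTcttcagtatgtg
Bcl2a1d: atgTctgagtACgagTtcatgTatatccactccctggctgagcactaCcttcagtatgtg

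The coding sequences of these copies were 97.9 to 98.8% identical in pairs. QuantSeq reads come from the 3′ end, where the last 300 transcript bases were 98.7 to 99.3% identical. Of the 75-base stretches in those 300 bases, the length of a read, 49.6% of Bcl2a1a, 60.2% of Bcl2a1b and 94.2% of Bcl2a1d occur in another copy. Counts of the single copies are therefore uncertain, since the handling of reads with several matches is not given in the sources used here. Bcl2a1b also shares 401 exon bases with Gm29094 on the same strand (0 counts in every library). Bcl2a1b lies at chr9:89199209-89207827 (+), Bcl2a1a at chr9:88956900-88962419 (+) and Bcl2a1d at chr9:88723285-88731914 (−).

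Bcl2a1d, at 279 to 299 CPM in NT GFP−, 195 to 239 in NT GFP+, 268 to 346 in anti-PD-L1 GFP− and 217 to 442 in anti-PD-L1 GFP+ libraries, was lowest in NT GFP+ cells as well. Its lowest anti-PD-L1 GFP+ library, KT21, overlapped the NT GFP+ range. In the 10-library fit Bcl2a1d rose with anti-PD-L1 in GFP+ cells by 0.70 (SE 0.148, edgeR with Benjamini-Hochberg adjusted p = 0.024) on the log2 scale, and Bcl2a1a was higher by 0.61 (SE 0.162, adjusted p = 0.107). In 12 libraries these values were 0.56 (SE 0.215) for Bcl2a1d and 0.51 (SE 0.238) for Bcl2a1a. Because the copies share reads, these are not independent observations. Bcl2a1c was nearly silent, at 0 to 0.674 CPM, and was not tested.

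**Figure D2:**
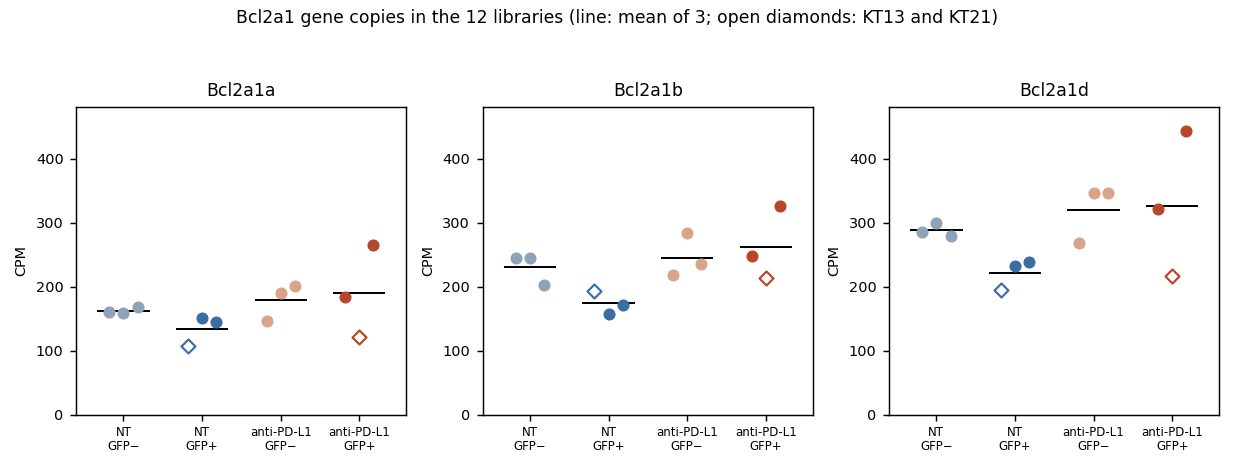
TMM-scaled CPM (y axis, from 0, same scale in each panel) of the 3 expressed Bcl2a1 copies in each library, by condition (x axis). Lines are means of 3 and open diamonds are KT13 and KT21. In every copy the NT GFP+ libraries lie below the NT GFP− libraries (157 to 192 against 202 to 245 CPM for Bcl2a1b), and KT23 is the highest of the 12 (325 CPM for Bcl2a1b, 442 CPM for Bcl2a1d).

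Bcl2l11 (ENSMUSG00000027381, chr2:128126038-128162547, + strand) encodes BIM, a BH3-only protein that binds all the anti-apoptotic members and can activate Bax and Bak1 directly. It was at 70.5, 55.5 and 66.3 CPM in NT GFP− (KT14, KT16, KT18) and at 78.2, 81.8 and 74.6 CPM in NT GFP+ libraries (KT13, KT15, KT17). After anti-PD-L1 it was at 51.7, 45.1 and 52.2 CPM in GFP− (KT20, KT22, KT24) and at 82.8, 67.3 and 92.6 CPM in GFP+ libraries (KT19, KT21, KT23). Every GFP+ library was above every GFP− library of its treatment, and within GFP− cells every anti-PD-L1 library was below every NT library. The macrophage and monocyte marker sum overlapped between GFP+ and GFP− libraries in both treatments. Its median was higher in GFP+ libraries (226.5 against 194.8 CPM in NT, 132 against 93.6 after anti-PD-L1). Within GFP− cells this sum was 153 to 225 CPM in NT and 77.1 to 134 CPM after anti-PD-L1. The T cell marker sum was lower in GFP+ than in GFP− NT libraries (3867 to 4233 against 4540 to 4643 CPM) and overlapped after anti-PD-L1. The sum of Cd4 and Foxp3 was 11.2 to 22.5 CPM in GFP+ against 15.1 to 23.9 in GFP− NT libraries. After anti-PD-L1 that sum was 6.89 to 15.3 against 15.9 to 24.9 CPM. Nearly all of it was Foxp3, since Cd4 reached at most 0.919 CPM in any library. The part of these cell types in the Bcl2l11 differences was not tested.

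The condition means of Bcl2l11 ran from 49.7 ± 3.99 CPM (SD, n = 3) in anti-PD-L1 GFP− through 64.1 ± 7.76 in NT GFP− and 78.2 ± 3.58 in NT GFP+ to 80.9 ± 12.7 in anti-PD-L1 GFP+, and the upper pair did not differ beyond its spread. In NT cells Bcl2l11 was 1.22-fold higher in GFP+ than in GFP− cells (log2 0.29, SE 0.159), and after anti-PD-L1 1.63-fold higher (log2 0.70, SE 0.16, adjusted p = 0.261 by the edgeR test with Benjamini-Hochberg adjustment). Averaged over treatments it was 1.41-fold higher (log2 0.50, SE 0.112, edgeR with Benjamini-Hochberg adjusted p = 0.104).

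Without KT13 and KT21, Bcl2l11 was 1.76-fold higher in GFP+ cells after anti-PD-L1 (log2 0.82, SE 0.142, edgeR with Benjamini-Hochberg adjusted p = 0.00771) and 1.47-fold higher averaged over treatments (log2 0.55, SE 0.1, adjusted p = 0.00388), both past the threshold. Leaving out KT21 alone also brought the averaged comparison past it (edgeR with Benjamini-Hochberg adjusted p = 0.0305). DESeq2 on all 12 libraries gave adjusted p = 0.0227 after anti-PD-L1 and 0.00974 averaged. The change of Bcl2l11 with anti-PD-L1 was −0.37 (SE 0.159) in GFP− and 0.05 (SE 0.158) in GFP+ cells on the log2 scale, and the interaction was 0.42 (SE 0.224, edgeR adjusted p = 1).

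FOXO transcription factors are known activators of Bcl2l11, and the stretch before an annotated start is shown because it holds a FOXO core motif. The window of another annotated start of Bcl2l11, chr2:128127325-128127624 (+), did not hold the motif. The motif was chosen after the values were seen. The sequence is RefSeq's, build GRCm38.p6, chr2:128125788-128126037 (+), upstream of the annotated start at the gene's 5′ end, and capitals mark the motif, whose first base lies 227 bases before the start.
Bcl2l11: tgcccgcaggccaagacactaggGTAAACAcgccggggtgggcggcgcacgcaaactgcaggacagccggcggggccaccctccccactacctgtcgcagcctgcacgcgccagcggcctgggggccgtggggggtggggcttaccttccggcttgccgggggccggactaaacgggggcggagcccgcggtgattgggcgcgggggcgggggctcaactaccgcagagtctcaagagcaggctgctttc

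The motif GTAAACA, searched on both strands, occurred in 3.65% of all 32851 promoter windows and in 2 of the 17 windows of the family (Bcl2l11 and Bbc3), not counting Pmaip1, which was not searched. Windows ran from 250 bases before to 50 after a start, and a match is a description of the letters only.

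Bid (ENSMUSG00000004446, chr6:120891930-120916853, − strand) encodes a BH3-only protein that is activated when caspase-8 cleaves it. It was at 12.4, 15.4 and 16.05 CPM in NT GFP− and at 19.5, 21.2 and 21.8 CPM in NT GFP+ libraries, which did not overlap. After anti-PD-L1 it was at 17.1, 16.6 and 16.2 CPM in GFP− and at 19.65, 12.97 and 17.8 CPM in GFP+ libraries, which did. The log2 difference of GFP+ from GFP− cells was 0.51 (SE 0.199, edgeR with Benjamini-Hochberg adjusted p = 0.765) in NT and 0.01 (SE 0.2) after anti-PD-L1, and the interaction was −0.50 (SE 0.282, adjusted p = 1). The exons of Bid share 628 bases with Bcl2l13 on the opposite strand (11.1 to 20.5 CPM), and the sources used here do not give the strand setting of the counting.

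Pmaip1 (ENSMUSG00000024521) encodes NOXA, a p53 target that neutralizes MCL1 and A1. It was at 28.4 to 29.4 CPM in NT GFP−, at 41.4, 23.5 and 15.8 in NT GFP+ (KT13, KT15, KT17), at 31.5 to 38.1 in anti-PD-L1 GFP− and at 23.3 to 29.7 in anti-PD-L1 GFP+ libraries. The spread in NT GFP+ cells came from KT13, the highest of the 12, and KT17, the lowest. After anti-PD-L1 every GFP+ library was below every GFP− library (log2 −0.46, SE 0.268). In NT cells the difference was −0.11 (SE 0.267) with KT13 and −0.56 (SE 0.192) in the 10-library fit. Averaged over treatments Pmaip1 differed by −0.28 (SE 0.189, edgeR with Benjamini-Hochberg adjusted p = 0.728), and by −0.48 (SE 0.135, adjusted p = 0.105) in 10 libraries.

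Bbc3 (ENSMUSG00000002083, chr7:16308393-16318205, + strand) encodes PUMA, the other p53-induced BH3-only member of the set. It was at 7.10 to 10.3 CPM in NT GFP−, 5.45 to 17.8 in NT GFP+, 7.10 to 10.6 in anti-PD-L1 GFP− and 6.07 to 11.98 in anti-PD-L1 GFP+ libraries. All 4 ranges overlapped, and KT13 and KT17 were the highest libraries. With 82 to 200 counts per library, Bbc3 was the least deeply counted of the 10 genes and its fold changes had SE of 0.385 to 0.388 in the 4 comparisons between 2 conditions.

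The effectors Bax and Bak1 were highest in the libraries that stood apart. Bax (ENSMUSG00000003873, chr7:45461697-45466898, − strand) was at 20.4 CPM in KT13 and 22.1 CPM in KT21, and at 5.94 to 12.2 CPM in the other 10 libraries. Bak1 (ENSMUSG00000057789, chr17:27019810-27029009, − strand) was at 66.5 CPM in KT21 and 38.4 CPM in KT13, and at 25.0 to 33.0 CPM in the other 10. Both genes thus had their 2 highest values in KT13 and KT21.

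Over 12 libraries Bax was higher in GFP+ than in GFP− cells by 0.81 (SE 0.443) in NT and by 0.49 (SE 0.442) after anti-PD-L1 on the log2 scale, and Bak1 by 0.21 and 0.46 (SE 0.284 for each). In the 10-library fit these values were 0.34 (SE 0.321) and −0.17 (SE 0.327) for Bax, and 0.09 (SE 0.179) and −0.07 (SE 0.181) for Bak1, so the direction after anti-PD-L1 turned for both. None of these values reached the threshold. Bax shares 192 exon bases with Gm45808 on the same strand (0 counts in every library). Bak1 shares 614 exon bases with Ggnbp1 on the opposite strand (at most 2.94 CPM).

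**Figure D3:**
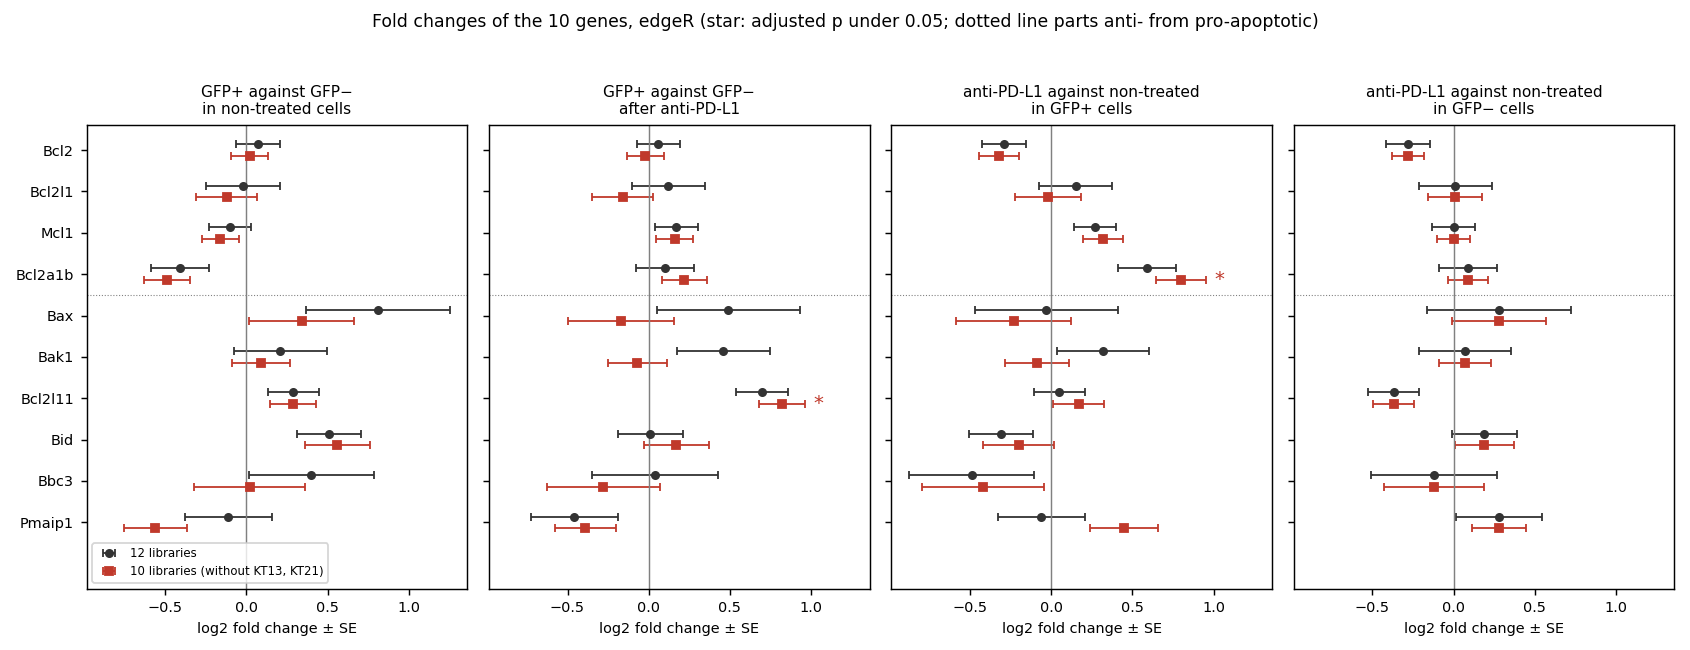
log2 fold change with its SE (x axis) of each gene (y axis) in the 4 comparisons between 2 conditions, from edgeR fits to 12 libraries (black circles) and to 10 (red squares). Stars mark an adjusted p under 0.05, which only Bcl2l11 in GFP+ against GFP− after anti-PD-L1 (0.82) and Bcl2a1b with anti-PD-L1 in GFP+ cells (0.80) had, both in the 10-library fit. Values for Bax and Bak1 after anti-PD-L1 lie on either side of 0 in the 2 fits.

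The counts of called genes among the 10 are set beside the share of all tested genes called by the same rule, using the adjusted p of edgeR. For GFP+ against GFP− cells in NT, 0 of the 10 were called in 12 libraries (0.00706% of all genes) and 0 in 10 libraries (0.339%). At an unadjusted p under 0.05 there were 2 in 12 libraries, Bid higher and Bcl2a1b lower (6.05% of all genes), and 3 in 10 libraries, with Pmaip1 lower as well (9.24%). DESeq2 on 12 libraries called 0 (0.302%). Libraries did not overlap for 3 of the 10 genes, Bcl2l11 and Bid above and Bcl2a1b below, against 12.8% of all genes.

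After anti-PD-L1, for the same comparison of GFP fractions, 0 of the 10 were called in 12 libraries (0.0282% of all genes) and 1, Bcl2l11, in 10 libraries (0.17%). The same gene alone had an unadjusted p under 0.05 in either fit (4.08% and 5.34% of all genes), and DESeq2 on 12 libraries called it too (0.305%). Libraries did not overlap for Bcl2l11 and Pmaip1, against 10.6% of all genes. Bcl2l11 was the 1 gene of the 10 separated in the same direction in both treatments, as 1.84% of all genes were in one direction or the other.

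Averaged over treatments, 0 of the 10 were called between GFP+ and GFP− cells in 12 libraries (0.31% of all genes) and 1, Bcl2l11, in 10 libraries (1.08%), as in DESeq2 on 12 libraries (0.899%). At an unadjusted p under 0.05 there was 1, Bcl2l11, in 12 libraries (8.18%) and 3 in 10 libraries, Bcl2l11 and Bid higher and Pmaip1 lower (10.3%).

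For anti-PD-L1 against NT in GFP+ cells, 0 of the 10 were called in 12 libraries (0.0141% of all genes) and 1, Bcl2a1b, in 10 libraries (0.563%), with 0 by DESeq2 on 12 libraries (0.511%). At an unadjusted p under 0.05 there were 2 in 12 libraries, Bcl2a1b higher and Bcl2 lower (6.74%), and 4 in 10 libraries, with Mcl1 and Pmaip1 higher as well (8.54%). Libraries did not overlap for 3 genes, Mcl1 and Bcl2a1b above and Bcl2 below, against 10.3% of all genes.

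For anti-PD-L1 against NT in GFP− cells, 0 of the 10 were called in 12 libraries (0% of all genes), in 10 libraries (0.373%) or by DESeq2 on 12 libraries (0.143%). Bcl2l11 was lower at an unadjusted p under 0.05 in 12 libraries (3.44% of all genes), and Bcl2l11 and Bcl2 in 10 libraries (7.22%). Libraries did not overlap for 4 genes, Bid and Pmaip1 above and Bcl2 and Bcl2l11 below, against 12.3% of all genes. Bcl2 was the 1 gene of the 10 separated in the same direction in both GFP fractions, against 1.59% of all genes.

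Averaged over GFP fractions, 0 of the 10 were called with anti-PD-L1 in 12 libraries (0.395% of all genes) and 0 by DESeq2 on 12 libraries (0.983%), while Bcl2a1b was called in 10 libraries (1.36%, log2 0.44, SE 0.0984, edgeR with Benjamini-Hochberg adjusted p = 0.0192). At an unadjusted p under 0.05 there were 2 in 12 libraries, Bcl2a1b higher and Bcl2 lower (7.67%), and 3 in 10 libraries, with Pmaip1 higher as well (11.2%). For the interaction of GFP and treatment, 0 of the 10 and 0% of all genes were called in 12 libraries, in 10 libraries and by DESeq2 on 12 libraries. At an unadjusted p under 0.05 the interaction held 0 of the 10 in 12 libraries (2.08%) and 2, Bcl2l11 and Bcl2a1b, in 10 libraries (4.29%).

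As groups, the 4 anti-apoptotic genes had a median log2 fold change of −0.06 and the 6 pro-apoptotic genes of 0.35 in GFP+ against GFP− NT cells, where the median of all genes was 0.00. After anti-PD-L1 the same medians were 0.11 and 0.25, again with 0.00 for all genes. In 10 libraries they were −0.14 and 0.19 in NT and 0.07 and −0.12 after anti-PD-L1, so the higher pro-apoptotic median of GFP+ cells after anti-PD-L1 rested on those libraries. With anti-PD-L1 the medians were 0.21 and −0.05 in GFP+ cells and 0.01 and 0.13 in GFP− cells, where all genes had −0.01 in each.

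A balance per library was computed as the mean centred log2(CPM + 0.5) of the anti-apoptotic genes minus that of the pro-apoptotic genes. It was 0.12, 0.23 and 0.15 in NT GFP− libraries, −0.48, −0.25 and 0.01 in NT GFP+, −0.11, 0.07 and 0.22 in anti-PD-L1 GFP− and 0.07, −0.15 and 0.11 in GFP+ libraries after anti-PD-L1. All NT GFP+ libraries were below the NT GFP− libraries (−0.24 ± 0.24 against 0.17 ± 0.06, SD, n = 3), and the anti-PD-L1 groups overlapped (0.01 ± 0.14 in GFP+, 0.06 ± 0.17 in GFP−). Without KT13 the NT GFP+ mean was −0.12, and without KT21 the anti-PD-L1 GFP+ mean was 0.09.

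Ratios of Bcl2, Mcl1 and Bcl2a1b to Bcl2l11 within a library, a comparison chosen after the values were seen, were lower in GFP+ than in GFP− libraries. For Bcl2 over Bcl2l11 the log2 ratio was 1.53 to 1.75 in NT GFP+ against 1.79 to 2.03 in NT GFP− libraries, and 0.94 to 1.72 in anti-PD-L1 GFP+ against 1.85 to 2.14 in anti-PD-L1 GFP− libraries. For Mcl1 over Bcl2l11 these ranges were 1.34 to 1.61 against 1.73 to 2.03 in NT and 1.57 to 2.01 against 2.16 to 2.37 after anti-PD-L1. For Bcl2a1b over Bcl2l11 they were 0.94 to 1.30 against 1.61 to 2.14 in NT and 1.58 to 1.81 against 2.07 to 2.65 after anti-PD-L1. None of these 6 pairs of ranges overlapped. Because Bcl2l11 itself separated the GFP fractions, the ratio of a gene that did not differ can separate them too. Of the other 14172 genes tested, the ratio to Bcl2l11 was lower in every GFP+ than in every GFP− library for 22.7% in NT, for 50.6% after anti-PD-L1 and for 15.8% in both, so the ratios add nothing particular to these genes. For Bcl2l1 over Bcl2l11 the ranges overlapped in both treatments. The ratios describe read counts, not proteins.

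**Figure D4:**
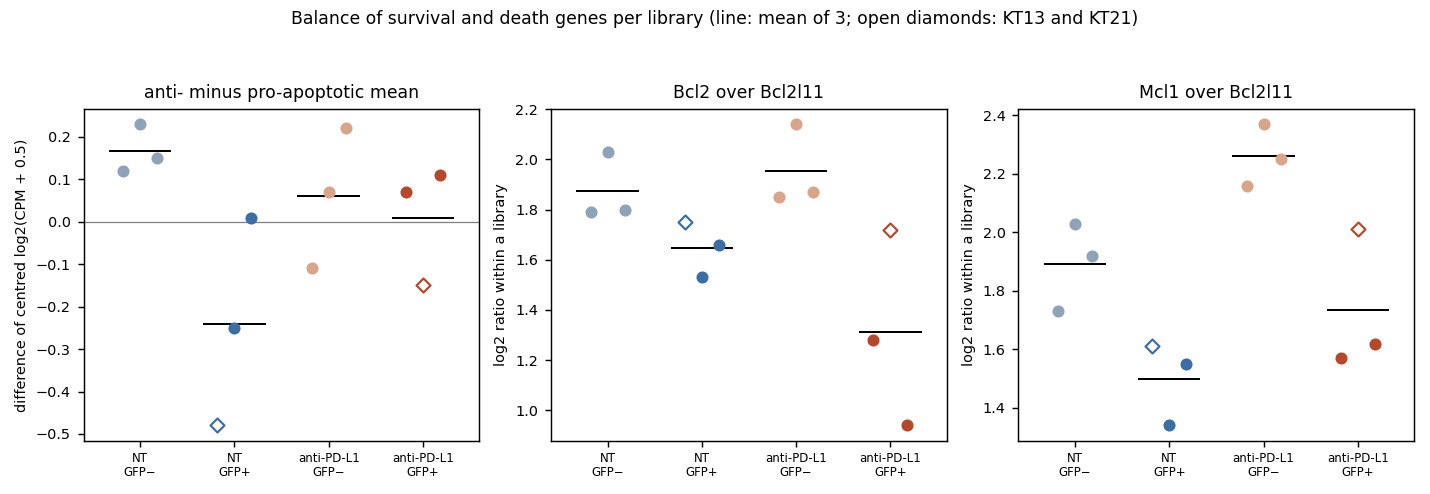
Balance of anti- minus pro-apoptotic genes (left, difference of mean centred log2 values) and log2 ratios of Bcl2 and of Mcl1 to Bcl2l11 (middle and right) in each library, by condition (x axis). Lines are means of 3 and open diamonds are KT13 and KT21. The ratios of GFP+ libraries lie below those of GFP− libraries in each treatment (0.94 to 1.72 against 1.85 to 2.14 for Bcl2 after anti-PD-L1), whereas the overall balance overlaps after anti-PD-L1.

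Around the family, 73 further genes were listed by role, of which 66 were tested in 12 libraries and 67 in 10. In 12 libraries edgeR called 1 of the 66, in 1 comparison that called 0.31% of all genes. Il7r, the receptor chain for IL-7, whose signal sustains Bcl2, was lower in GFP+ cells averaged over treatments (log2 −0.60, SE 0.0938, edgeR with Benjamini-Hochberg adjusted p = 0.0131). It was at 47.6 to 50.3 CPM in NT GFP+ against 70.6 to 75.6 in NT GFP− libraries, and at 60.4 to 69.8 in anti-PD-L1 GFP+ against 94.4 to 106 in anti-PD-L1 GFP− libraries. The call was lost on leaving out KT16, KT18, KT20, KT22 or KT24, all GFP−, with edgeR adjusted p between 0.0514 and 0.0837 and the log2 fold change between −0.61 and −0.56. In the same comparison Bcl2 differed by 0.07 (SE 0.0958) on the log2 scale, and a link between Il7r and Bcl2 was not tested.

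In 10 libraries the averaged comparison of GFP+ with GFP− cells called 4 of the 67 genes, where it called 1.08% of all genes. Il7r (log2 −0.63, SE 0.0932), Bnip3, a hypoxia-induced BH3-like mitophagy gene (−0.77, SE 0.159), and Fasl, the ligand of the death receptor Fas (−0.44, SE 0.104), were lower. Myc, which drives growth and sensitizes cells to apoptosis, was higher (0.87, SE 0.19). Their edgeR adjusted p-values, with Benjamini-Hochberg adjustment, were 0.000467, 0.0119, 0.034 and 0.0189. Fasl was at 38.1 to 43.6 CPM in NT GFP+ against 57.0 to 68.3 in NT GFP− libraries and at 43.6 to 60.5 against 63.7 to 74.6 after anti-PD-L1, without overlap in either. Myc was at 5.76 CPM in KT21 against 14.1 and 20.4 in the other anti-PD-L1 GFP+ libraries. Il7r was also called after anti-PD-L1 alone (log2 −0.69, SE 0.132, edgeR adjusted p = 0.0178). DESeq2 on all 12 libraries called Il7r after anti-PD-L1 too (−0.61, SE 0.143, DESeq2 adjusted p = 0.0101). In the averaged comparison, DESeq2 on 12 libraries called Fasl (−0.50, SE 0.126, adjusted p = 0.0121) and Bnip3 (−0.66, SE 0.183, adjusted p = 0.0407).

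With anti-PD-L1 averaged over GFP fractions, 3 of the 67 genes were called in 10 libraries, all higher, where 1.36% of all genes were. These were Bcl2a1d (log2 0.42, SE 0.0954), Il7r (0.39, SE 0.0919) and Il2rb, the shared receptor chain for IL-2 and IL-15 (0.27, SE 0.0686), with edgeR Benjamini-Hochberg adjusted p of 0.0218, 0.0316 and 0.0477. In 12 libraries edgeR called none of the 3 (adjusted p = 0.597, 0.0893 and 0.57 by edgeR). DESeq2 on 12 libraries called Il7r (log2 0.42, SE 0.101, DESeq2 adjusted p = 0.00722).

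The other 3 lists held no call by edgeR in either fit or by DESeq2. These were the 12 genes of caspase activation after mitochondrial release, the 5 inhibitors of apoptosis and the 10 tested genes of the p53 list, 27 in all. In the averaged comparisons, 0 of the 27 had an unadjusted p under 0.05 in 12 libraries, and in 10 libraries 1 did for GFP and 2 for anti-PD-L1. In the averaged comparison of GFP fractions over 12 libraries, 1 gene per list, that with its smallest unadjusted p, is named. These were Endog (log2 0.58, SE 0.29), Cflar (−0.13, SE 0.0998) and Plk2 (0.52, SE 0.262).

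**Figure D5:**
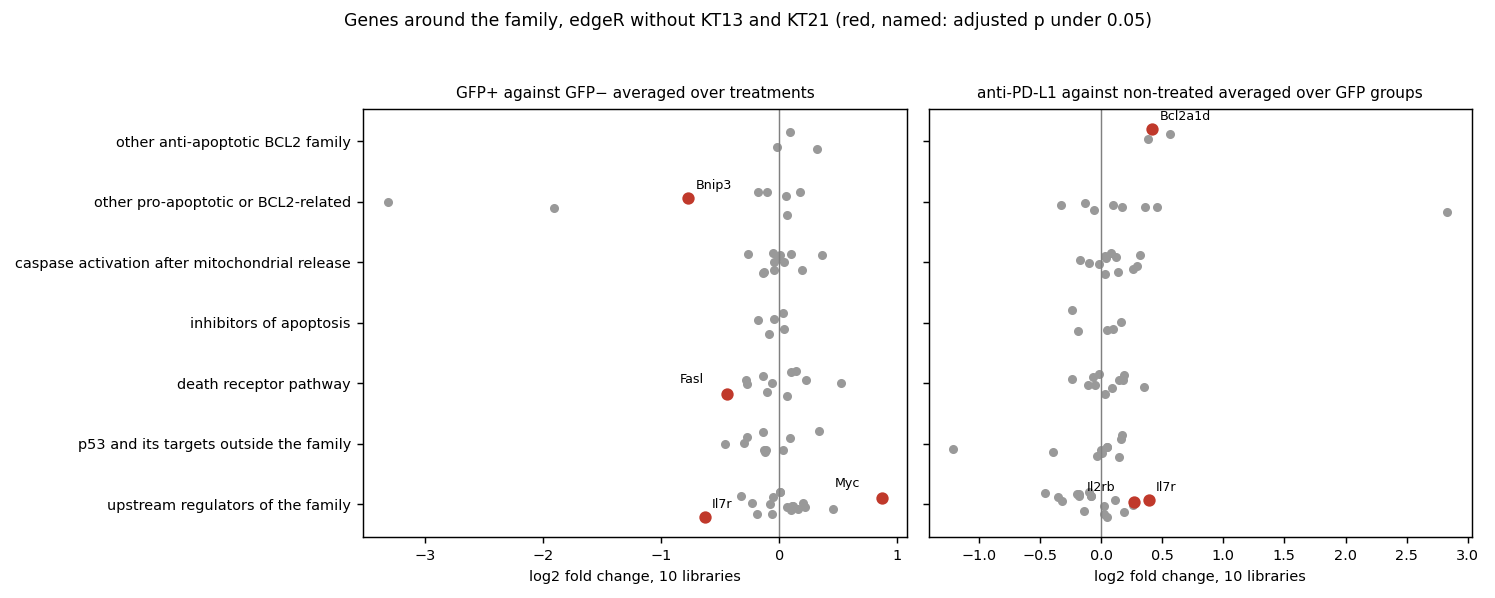
log2 fold changes (x axis) of the 67 tested genes around the family in 7 lists (y axis, points jittered vertically), from the edgeR fit to 10 libraries, for GFP+ against GFP− averaged over treatments (left) and anti-PD-L1 against non-treated averaged over GFP fractions (right). Red points with names had an adjusted p under 0.05, 4 on the left and 3 on the right. The grey points beyond 1.2 on either side are Bcl2l15, Bik and Phlda3, which were not called.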

How the data were processed

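The authors deposited a table of raw read counts per Ensembl gene for the 12 libraries. Per the methods, 75-base single-end QuantSeq reads were trimmed with Cutadapt 2.1 and aligned with HISAT2 (build mm10), and featureCounts of Rsubread 2.10.5 gave the counts. The submitters' processing notes name cutadapt 1.7 and Subread 1.6.4. Annotation release, strand setting and reads with several matches are not given in the sources used here. Symbols and exons came from GENCODE vM21.

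Groups came from the sample labels, which give no batch. Counts were filtered by filterByExpr, scaled by TMM and compared across all genes with the quasi-likelihood F test of edgeR 4.0.16 (R 4.3.3) in 1 fit over the 4 conditions, with Benjamini-Hochberg adjustment over all genes tested and calls at an adjusted p under 0.05. DESeq2 1.42.0 was an alternative. The fit was run on simulated counts with larger changes than those of the BCL2 family genes and no outlying libraries. That simulation does not show how the fit performs on changes of the size described here. CPM were computed from the deposited counts. No 2 libraries of the same condition agreed within sampling noise (chi-square per degree of freedom of at least 11.9).

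Named genes were the 10 members, the copies of Bcl2a1b, genes of the other lists called in either fit or, in a list with none called, that with the smallest unadjusted p, and the 3 genes closest to Bcl2 in pattern. The members and lists were chosen with earlier results of these data known.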

Additional observations from a re-analysis of the deposited data

How the results depend on the processing

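The limits are few libraries, reads shared among the Bcl2a1 copies, exon bases shared with other genes, unknown strand counting and low counts of Bbc3 and Bax. The SE given here rest on the spread between libraries, as estimated by edgeR or DESeq2. An interval from the read counts of a single library, without molecular identifiers, would cover counting error only. No paired analysis was made because the labels give the conditions no shared replicate numbers. Whether GFP+ and GFP− libraries came from the same mice is not given in the labels, and the fits treat them as independent. Every alternative chosen beforehand was run, and DESeq2 without KT13 and KT21 was added after seeing the data. The edgeR fit without KT13 and KT21 was among those chosen beforehand, but these libraries were picked by their correlations in these same data. Its adjusted p-values are therefore not an independent test. Among anti-PD-L1 GFP+ libraries, KT21 had the lowest Bcl2l11 (67.3 CPM) and Bcl2a1b (214 CPM). Among NT GFP+ libraries, KT13 had the highest Bcl2a1b (192 CPM) and the middle Bcl2l11 (78.2 CPM). Where values turned or moved, the cause was not tested.

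The 7 comparisons are taken in the order GFP in NT, GFP after anti-PD-L1, anti-PD-L1 in GFP+, anti-PD-L1 in GFP−, GFP averaged, anti-PD-L1 averaged and interaction. Over all genes the calls were 1, 4, 2, 0, 44, 56 and 0 in 12 libraries by edgeR. Without KT13 and KT21 the first 6 were 50, 25, 83, 55, 159 and 201, with DESeq2 52, 40, 80, 32, 150 and 164, and with DESeq2 without those libraries 129, 64, 143, 88, 255 and 296. With no filter beyond 1 count all 7 were 78, 49, 123, 60, 204, 223 and 10. Fitting only the 2 groups compared gave 0, 0 and 51 for GFP after anti-PD-L1, anti-PD-L1 in GFP+ and anti-PD-L1 in GFP−. Leaving out 1 library gave 0 to 6, 0 to 7, 0 to 34, 0 to 28, 13 to 50 and 27 to 90 for the first 6. A filter at 10 counts and RLE size factors stayed within 1.5 times the 12-library counts.

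Of the 10 genes, 1 was called without KT13 and KT21 for GFP after anti-PD-L1, GFP averaged, anti-PD-L1 in GFP+ and anti-PD-L1 averaged. DESeq2 called 1 for GFP after anti-PD-L1 and GFP averaged, and without those libraries 1 for these, 1 for anti-PD-L1 in GFP+ and 2 for anti-PD-L1 averaged. Leaving out 1 library gave 0 to 1 for GFP averaged, the 1 being Bcl2l11 without KT21. Over the settings other than leaving out 1 library, 36 of the members' log2 fold changes turned direction, 11 gained a call and 413 did neither. Those of Bcl2l11 with GFP, Bcl2 with anti-PD-L1 averaged and Bcl2a1b with anti-PD-L1 in GFP+ cells kept their direction in every setting.

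Without KT13 and KT21 these log2 values turned, and the same fit by DESeq2 follows in parentheses where it differs. GFP after anti-PD-L1 was −0.02 for Bcl2, −0.16 for Bcl2l1, −0.17 (−0.18) for Bax, −0.07 for Bak1 and −0.28 for Bbc3. Anti-PD-L1 in GFP+ was −0.02 (−0.04) for Bcl2l1, −0.09 (−0.10) for Bak1 and 0.45 (0.44) for Pmaip1. GFP averaged was −0.14 for Bcl2l1 and −0.13 for Bbc3, and by DESeq2 alone −0.001 for Bcl2 and −0.0003 for Mcl1. Anti-PD-L1 averaged was −0.01 for Bcl2l1 and Bak1. The interaction was −0.04 for Bcl2l1, −0.16 (−0.17) for Bak1 and 0.17 (0.16) for Pmaip1. Mcl1 with anti-PD-L1 in GFP− was 0.002 without KT13 and KT21, 0.0001 by DESeq2 and 7e-05 by RLE size factors, and the Bcl2 interaction was 2e-05 with no filter.

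Leaving out 1 library, direction turned within these ranges. GFP in NT ran from −0.12 to 0.14 for Bcl2l1 and −0.56 to 0.16 for Pmaip1. GFP after anti-PD-L1 ran from −0.07 to 0.68 for Bak1, −0.17 to 0.78 for Bax, −0.28 to 0.27 for Bbc3, −0.02 to 0.17 for Bcl2, −0.07 to 0.23 for Bcl2a1b, −0.16 to 0.32 for Bcl2l1 and −0.11 to 0.17 for Bid. Anti-PD-L1 in GFP+ ran from −0.20 to 0.54 for Bak1, −0.69 to 0.43 for Bax, −0.12 to 0.35 for Bcl2l1, −0.04 to 0.17 for Bcl2l11 and −0.33 to 0.39 for Pmaip1. Anti-PD-L1 in GFP− ran from −0.02 to 0.20 for Bak1, −0.03 to 0.17 for Bcl2a1b, −0.10 to 0.08 for Bcl2l1 and −0.03 to 0.04 for Mcl1. GFP averaged ran from −0.09 to 0.15 for Bcl2l1. Anti-PD-L1 averaged ran from −0.06 to 0.31 for Bak1, −0.20 to 0.36 for Bax, −0.05 to 0.18 for Bcl2l1, −0.12 to 0.02 for Bid and −0.02 to 0.34 for Pmaip1. The interaction ran from −0.28 to 0.46 for Bak1, −0.97 to 0.15 for Bax, −0.72 to 0.01 for Bbc3, −0.09 to 0.09 for Bcl2, −0.13 to 0.34 for Bcl2l1 and −0.61 to 0.11 for Pmaip1.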
